A study of Mus musculus with 12 samples.

Results

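The cytosolic ribosomal protein genes, which encode the protein subunits of the ribosomes that translate nuclear messenger RNAs, were examined in spleens of 2 BALB/c mouse colonies. Members were the probe sets annotated with a single gene symbol that begins with Rpl or Rps and a number, together with Rplp0, Rplp1, Rplp2 and Rpsa. The kinases of the Rps6k family and the mitochondrial ribosomal proteins were not counted as members. The rule found 107 probe sets of 51 genes among the 34945 probe sets of 18193 genes that carried 1 symbol, and no measured value entered it. Rplp1 was not among them, because its probe sets named several genes. A further 110 probe sets that named a ribosomal protein gene beside other genes were also outside the rule.

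The study hybridized 1 array for each of 12 spleens to ask how the BALB/cJ and BALB/cByJ colonies differ before and after immunization. All mice were females of the BALB/c strain, with no allele or transgene named, and the labels gave no age. The 3 naive BALB/cJ and the 3 naive BALB/cByJ mice were left untreated. The 3 immunized BALB/cJ and the 3 immunized BALB/cByJ mice received a single intraperitoneal injection of cartilage proteoglycan (PG, 100 µg of protein per the labels) emulsified in 2 mg of the adjuvant dimethyldioctadecylammonium bromide, and were killed on day 12, before arthritis develops. RNA came from a piece of each spleen, so each array stands for 1 animal and for the mixture of cells in that piece. The values were log2 signals from which the median of the 12 arrays had been subtracted for every probe set. A value of 0 is therefore the middle array for that probe set, and no level of one gene can be set against another. For the same reason the presence of the spleen's own markers could not be checked, only their differences between arrays. In such bulk samples fewer cells of a type and less RNA per cell cannot be told apart.

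The small subunit of the ribosome reads the messenger RNA, and the large subunit joins the amino acids, with the acidic stalk proteins recruiting the translation factors. Ribosomal protein genes are among the most strongly and evenly expressed genes of dividing cells, and their messenger RNAs begin with a C followed by a run of pyrimidines, the terminal oligopyrimidine (TOP) tract, through which the kinase mTORC1 controls their translation as a group. In spleen they serve proliferating lymphocytes and red cell precursors, and inherited loss of 1 copy of several of them causes Diamond-Blackfan anaemia, a failure of red cell production. By role the 51 symbols comprised 20 proteins of the large subunit with 40 probe sets, 21 proteins of the small subunit with 53, the 2 stalk proteins Rplp0 and Rplp2 with 2, and 6 paralogs with 10. The last 2 symbols were the pseudogene Rps15a-ps6 and the binding protein gene Rps19bp1, which the rule admits by its spelling. RefSeq lists 49 of the 51 as protein-coding and Rps15a-ps6 and the paralog Rps4l as transcribed pseudogenes.

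The sequence around the start sites, which the rule did not use, was searched for runs of pyrimidines. The search did not require a run to begin at the start or with a C, so its counts are not counts of TOP tracts. RefSeq promoter sequences (GRCm38.p6) were matched for 44 of the 51 symbols, with 52 start sites. Printed 5′ to 3′ are 15 bases before and 15 bases from the start of 10 genes to which the results below return. Of these, 6 have a run of at least 8 bases and 4 a shorter one, and this bound does not decide which genes have the tract. The longest run of C or T is in capitals.
Rps24: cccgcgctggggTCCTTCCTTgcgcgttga
Rps10: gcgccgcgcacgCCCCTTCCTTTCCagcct
Rps18: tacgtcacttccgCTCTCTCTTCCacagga
Rps6: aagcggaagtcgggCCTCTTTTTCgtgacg
Rpl12: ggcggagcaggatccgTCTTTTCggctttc
Rpl27a: gacttcgtgagCTCCTCCCTTTTCCCTTTC
Rpl35: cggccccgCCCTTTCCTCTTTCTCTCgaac
Rps16: cccgCTTCTgtcgtgacgtagcactcaatg
Rplp0: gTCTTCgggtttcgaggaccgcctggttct
Rpl11: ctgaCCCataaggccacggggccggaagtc
The windows are chr14:24490663-24490692 on the plus strand for Rps24, chr17:27635230-27635259 on the minus strand for Rps10, chr17:33955651-33955680 on the minus strand for Rps18, chr4:86857353-86857382 on the minus strand for Rps6, chr2:32961697-32961726 on the plus strand for Rpl12, chr7:109519180-109519209 on the plus strand for Rpl27a, chr2:39005117-39005146 on the minus strand for Rpl35, chr7:28350674-28350703 on the plus strand for Rps16, chr5:115559452-115559481 on the plus strand for Rplp0 and chr4:136053379-136053408 on the minus strand for Rpl11. Rps24 has a second annotated start, at which the longest run is 4 bases. In this window of 30 bases a run of at least 8 bases that were all C or T, searched on the strand of the gene alone, was present at 19 of the 52 member start sites (36.5%), against 12.0% of 32851 start sites of all genes, so that most member start sites did not hold one. The longest run had a median of 6 bases in the members and 4 in all genes. Rpl7a held the longest run among the members, 21 bases, and Rps3a1 and Rpl7l1 had at most 2 in a row. Annotated starts can lie some bases from the start in use, so the windows describe the annotation.

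A few libraries stood apart before any comparison was made. Naive BALB/cByJ replicate 1 had pancreas acinar genes at a list median of 2.61 above the middle array. Pigment cell genes reached between 0.63 and 1.79 in 4 arrays, 2 of naive BALB/cJ and 1 of each immunized group. Heat shock genes reached 0.93 in immunized BALB/cJ replicate 3. Erythroid genes, 17 of 23 listed ones measured, had array medians between -1.56 and -0.27 in naive BALB/cJ, between 0.22 and 0.68 in naive BALB/cByJ, between -1.03 and 0.21 in immunized BALB/cJ, and between -0.12 and 0.51 in immunized BALB/cByJ.

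Across the 12 arrays the ribosomal protein probe sets moved little, and the widest departure was a single naive BALB/cByJ spleen. The median over the 107 probe sets was 0.027, -0.0066 and -0.032 in the naive BALB/cJ arrays and 0.031, -0.033 and -0.14 in the naive BALB/cByJ arrays. It was 0.0017, -0.0041 and 0.015 in the immunized BALB/cJ arrays and 0.030, -0.038 and 0.035 in the immunized BALB/cByJ arrays. Naive BALB/cByJ replicate 3 was thus the low array, and the other 11 lay between -0.038 and 0.035. In that spleen 86 of the 107 probe sets were below 0, and 68 had their lowest value of all arrays there. The most frequent highest arrays were immunized BALB/cByJ replicate 3 with 29 probe sets and naive BALB/cByJ replicate 1 with 28. As means over 3 arrays, the medians were -0.0038 ± 0.029 (SD) in naive BALB/cJ, -0.048 ± 0.088 in naive BALB/cByJ, 0.0041 ± 0.0095 in immunized BALB/cJ, and 0.0091 ± 0.041 in immunized BALB/cByJ, so the groups differed by less than the spread within naive BALB/cByJ. The large subunit at -0.14 and the small subunit at -0.15 were equally low in naive BALB/cByJ replicate 3.

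**Figure D1:**
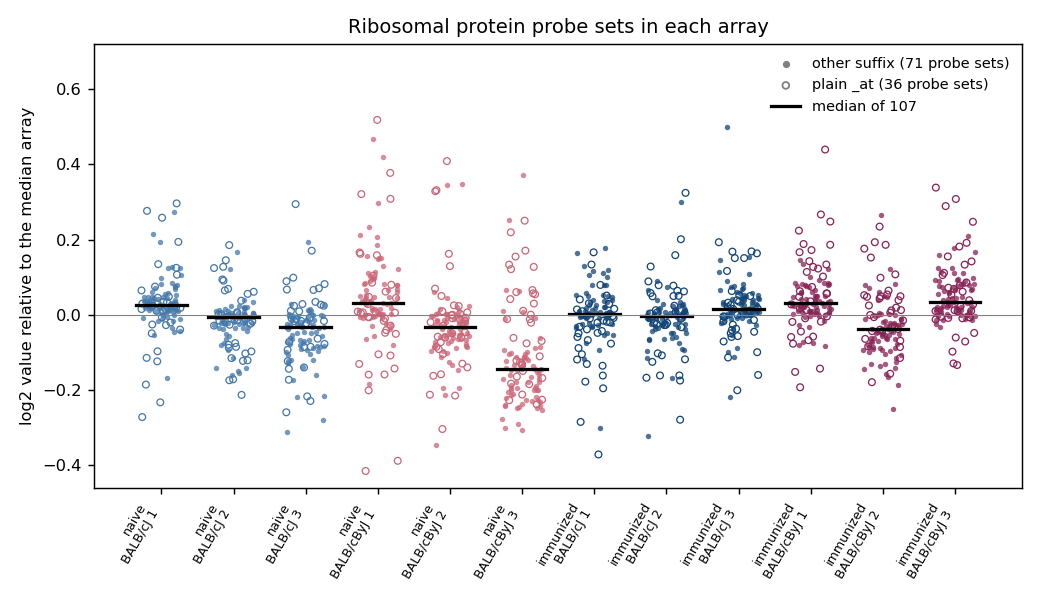
Log2 value relative to the median array (vertical axis) of the 107 ribosomal protein probe sets in each of the 12 arrays (horizontal axis), filled for probe sets whose names end in a suffix other than plain _at and open for plain _at, with the median of the 107 as a black line. The line lies between -0.038 and 0.035 in 11 arrays and at -0.14 in naive BALB/cByJ replicate 3.

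The low value of that spleen was read by 1 kind of probe set more than by the other. On this array design a name ending in plain _at marks a probe set made for 1 transcript, whereas _a_at, _x_at and _s_at mark sets that read several transcripts of a gene or sequences shared with other genes. In naive BALB/cByJ replicate 3 the 71 members with such a suffix had a median of -0.17, and the 36 plain _at members had a median of -0.041. The 110 probe sets that named several genes stood at -0.18, and the list of other genes with TOP messenger RNAs stood at -0.15. Mitochondrial ribosomal proteins, which build the separate ribosome of that organelle, stood at 0.022, and ribosome biogenesis factors at 0.056. The same array had the highest erythroid median of the 12, 0.68, and the highest cell cycle median, 0.51. Its B cell median, -0.16, and its neutrophil median, -1.10, were the lowest of the 12. The part of these markers in the low ribosomal protein values was not tested.

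**Figure D2:**
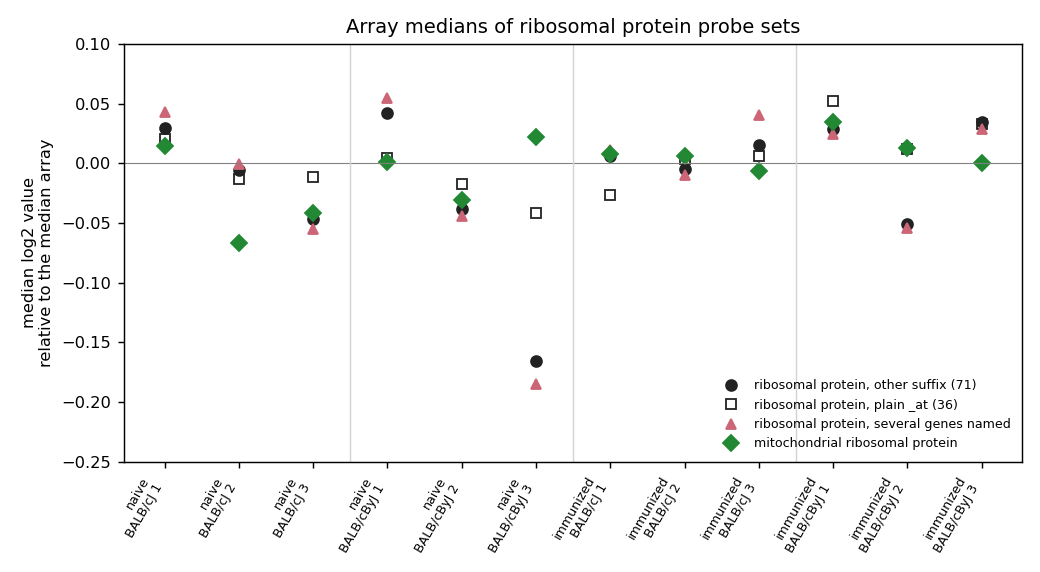
Median log2 value relative to the median array (vertical axis) in each of the 12 arrays (horizontal axis) for members with plain _at names, members with another suffix, probe sets naming several genes, and mitochondrial ribosomal proteins. Naive BALB/cByJ replicate 3 stands at -0.17 for the suffixed members and -0.18 for the sets of several genes, while its mitochondrial ribosomal proteins stand at 0.022.

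Between the naive colonies 2 ribosomal protein probe sets differed, 1 of Rps20 and 1 of Rps24, both coding for small subunit proteins and both on the Diamond-Blackfan list. Rps20 (1450417_a_at) was higher in BALB/cByJ by 0.47 on the log2 scale, and Rps24 (1455195_at) was lower by 0.32 on that scale, that is -0.32 as BALB/cByJ minus BALB/cJ. The 2 calls of 107 stand beside 4.39% of all 45037 probe sets called in this comparison, with 2.68% called higher in BALB/cByJ (1 member) and 1.71% called lower (1 member). At an unadjusted p under 0.05 the members numbered 8, with 3 higher and 5 lower, against 18.7% of all probe sets. Values of the 2 groups stood apart for 14 members, 6 higher and 8 lower in BALB/cByJ, against 21.7% of all probe sets (9.76% higher and 11.9% lower). All of these shares of the members were below those of the whole chip. Several marker lists differed between the same 2 groups without overlap. Erythroid genes were higher in naive BALB/cByJ, as given above, and so were cell cycle genes (17 of 19 measured, array medians between 0.11 and 0.51 against -0.99 to -0.37) and pancreas acinar genes (11 of 13, between 0.19 and 2.61 against -0.17 to 0.013). B cell genes (11 of 13) were lower, between -0.16 and -0.028 against 0.046 to 0.17. The part of these lists in the 2 calls was not tested. The erythroid medians of the 2 naive colonies did not overlap. A fit with an erythroid covariate therefore cannot tell an erythroid part from a colony difference. With the erythroid mean as a covariate 0 members were called and 26 of all probe sets, against 1976 without it. Without the 4 arrays high in pigment cell genes, which include 2 of naive BALB/cJ, 0 members were called, and 1 without the 4 high in pancreatic or heat shock genes.

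Rps20 encodes a protein of the head of the small subunit. The values of 1450417_a_at were 0.024, -0.12 and -0.31 in the naive BALB/cJ arrays, 0.42, 0.35 and 0.25 in the naive BALB/cByJ arrays, -0.053, -0.32 and -0.088 in the immunized BALB/cJ arrays, and 0.13, 0.12 and -0.024 in the immunized BALB/cByJ arrays. All naive BALB/cByJ values lay above every naive BALB/cJ value, and 2 of the 3 immunized BALB/cByJ values lay between the 2 naive groups, while that of replicate 3 fell within the range of naive BALB/cJ. The naive difference was 0.47 (SE 0.10, adjusted p = 0.0249) by limma, and that between the immunized colonies was 0.23 (SE 0.10, adjusted p = 0.621), again without overlap. The other 3 Rps20 probe sets did not pass the test in naive spleens, at 0.25 for 1421935_at, -0.019 for 1456373_x_at and -0.044 for 1456436_x_at. Over the 12 arrays 1450417_a_at correlated with 1421935_at at a Pearson r of 0.74, and 1456373_x_at with 1456436_x_at at 0.90, while the 4 pairs across these couples had r between 0.018 and 0.11. Leaving out any 1 of naive BALB/cByJ replicates 2 and 3 and naive BALB/cJ replicates 1, 2 and 3 ended the call, with adjusted p of 0.0589, 0.0654, 0.0516, 0.103 and 0.0591 in that order, within a range of 0.00581 to 0.66 over all alternatives.

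Rps24 takes part in the maturation of the small subunit's ribosomal RNA, and the first of its annotated start sites, printed above, carries a run of 9 pyrimidines. The values of 1455195_at were 0.19, -0.029 and 0.089 in the naive BALB/cJ arrays, -0.16, -0.30 and -0.24 in the naive BALB/cByJ arrays, 0.029, 0.077 and 0.16 in the immunized BALB/cJ arrays, and -0.058, -0.064 and 0.061 in the immunized BALB/cByJ arrays. Naive BALB/cByJ was the lowest group and its 3 arrays lay below the 3 of naive BALB/cJ, while every immunized array lay above the naive BALB/cByJ ones. The naive difference was -0.32 (SE 0.081, adjusted p = 0.0456). The other 5 Rps24 probe sets gave 0.14 for 1436500_at, -0.069 for 1436064_x_at, -0.024 for 1428530_x_at, 0.028 for 1456628_x_at and -0.0044 for 1453362_x_at, none of them called. The sets of Rps24 therefore lay on both sides of 0. The call was lost without any 1 array other than naive BALB/cByJ replicate 1. The adjusted p was 0.0406 without that array and up to 0.189 without another, and it ranged from 0.026 to 0.907 over all alternatives.

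The next members by p in naive spleens did not pass the test. Rpl12, a protein at the base of the stalk, stood at -0.28 (SE 0.089, adjusted p = 0.0999) on 1435655_at, from 0.28, 0.13 and 0.067 in the naive BALB/cJ arrays, 0.0085, -0.16 and -0.23 in the naive BALB/cByJ arrays, -0.021, -0.033 and -0.037 in the immunized BALB/cJ arrays, and 0.22, 0.15 and -0.0085 in the immunized BALB/cByJ arrays. Its naive BALB/cByJ arrays all lay below those of naive BALB/cJ, and without naive BALB/cByJ replicate 1 the adjusted p was 0.047. The small subunit gene Rps16 (1455835_at) had a difference of 0.28 (SE 0.099, adjusted p = 0.135), with naive BALB/cByJ above naive BALB/cJ in all 3 arrays. Over all 107 members the differences lay between -0.32 and 0.47 with a median of -0.041, against -0.0084 over all probe sets. Of the 107, 75 were below 0 (70.1%), against 52.1% of all probe sets. That median rested on naive BALB/cByJ replicate 3, since it was 0.0076 without this array, and it was -0.091 without naive BALB/cByJ replicate 1.

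**Figure D3:**
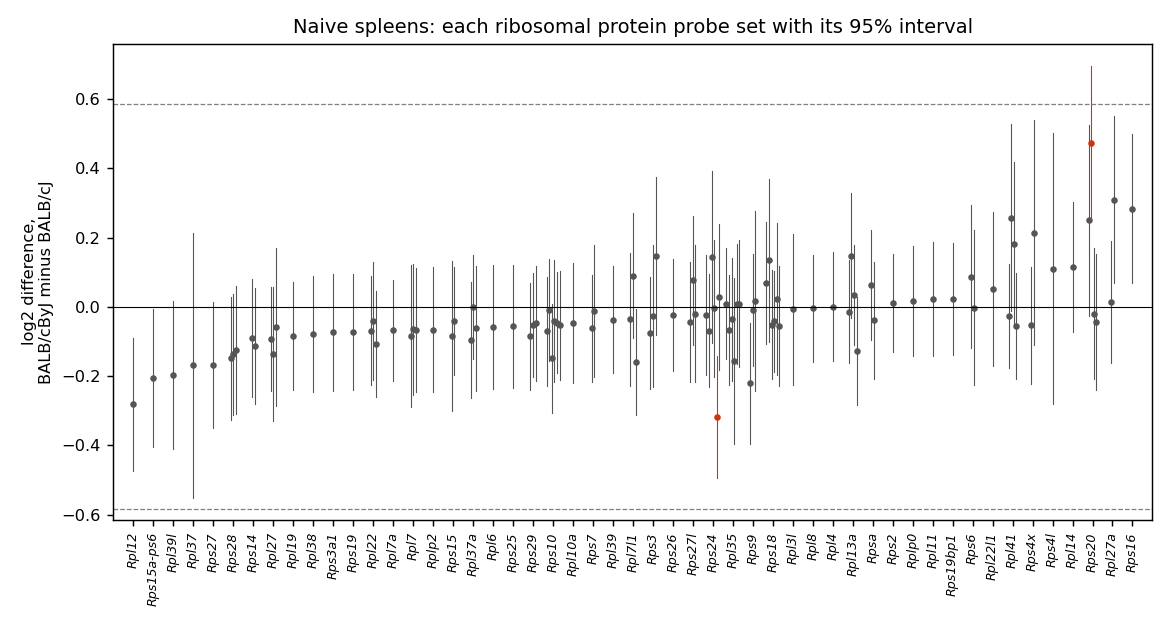
Log2 difference, naive BALB/cByJ minus naive BALB/cJ (vertical axis), of each ribosomal protein probe set with its 95% interval from limma, placed by gene (horizontal axis) in order of the median of the gene's probe sets. The 2 called probe sets, of Rps24 at -0.32 and of Rps20 at 0.47, are red, and the dashed lines mark a 1.5-fold difference in either direction, which 106 of the 107 intervals do not reach.

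After immunization no ribosomal protein probe set passed the test between the colonies. None of 107 passed the test, 0.12% of all probe sets did, and 6 members passed at an unadjusted p under 0.05, all higher in BALB/cByJ, against 7.92% of all. The arrays did not overlap for 17 members, 16 of them higher in BALB/cByJ, against 15% of all probe sets, of which 8.14% were higher and 6.88% lower. The median difference was 0.012, against -0.0067 over all probe sets. The 4 members with the smallest p were Rps10 1436384_at, Rpl35 1454833_at, Rps18 1421838_at and Rpl14 1422128_at. Rps10, a small subunit protein that is also a Diamond-Blackfan gene, had values on 1436384_at of 0.048, 0.19 and 0.070 in the naive BALB/cJ arrays, -0.0099, -0.061 and -0.070 in the naive BALB/cByJ arrays, -0.14, -0.17 and -0.16 in the immunized BALB/cJ arrays, and 0.11, 0.19 and 0.0099 in the immunized BALB/cByJ arrays. Immunized BALB/cByJ was above immunized BALB/cJ without overlap, and the difference was 0.26 (SE 0.073, adjusted p = 0.423). On the other Rps10 sets the immunized colonies overlapped. Over the 12 arrays 1436384_at correlated with those sets at a Pearson r between -0.20 and 0.054. Rpl35, which sits beside the exit of the peptide tunnel, had values on 1454833_at of 0.024, 0.065 and -0.064 in the naive BALB/cJ arrays, -0.42, -0.091 and 0.060 in the naive BALB/cByJ arrays, -0.28, -0.024 and -0.20 in the immunized BALB/cJ arrays, and 0.19, 0.19 and 0.18 in the immunized BALB/cByJ arrays. The 3 immunized BALB/cByJ values were nearly equal and lay above the immunized BALB/cJ values, with a difference of 0.36 (SE 0.11, adjusted p = 0.484). The immunized colonies overlapped on the other Rpl35 sets, with which 1454833_at correlated at r between -0.32 and 0.0052. Rps18 (1421838_at), a protein of the head of the small subunit, stood at 0.34 (SE 0.11, adjusted p = 0.495), and the large subunit gene Rpl14 (1422128_at) at 0.25 (SE 0.087, adjusted p = 0.525). Of the other Rps18 sets, 1435712_a_at and 1448739_x_at were also higher in immunized BALB/cByJ without overlap, and the rest overlapped. 

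The immunized arrays carried sample numbers from 2 runs, 29 to 33 and 48 to 50, and both runs held both colonies. Within the earlier run (2 BALB/cByJ arrays and 1 BALB/cJ array) the median member difference was 0.00031, and within the later run (1 and 2) it was 0.027. For Rps10 1436384_at the difference was 0.29 in the earlier run and 0.18 in the later one. For Rpl35 1454833_at it was 0.47 and 0.29, for Rps18 1421838_at 0.34 and 0.36, and for Rpl14 1422128_at 0.23 in both.

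In BALB/cJ, no ribosomal protein probe set passed the test on immunization. The count was 0 of 107, as it was for all probe sets (0%), and 4 members passed at an unadjusted p under 0.05, 2 higher and 2 lower, against 9.19% of all. For 20 members the arrays did not overlap, 13 higher and 7 lower after immunization, against 17% of all probe sets (7.53% higher and 9.51% lower). The median was 0.013, against -0.00080 over all. Neutrophil genes, at array medians of -0.89 to 0.13 in naive BALB/cJ and 0.52 to 0.87 in immunized BALB/cJ, and heat shock genes, at -0.13 to -0.054 and 0.11 to 0.93, were higher after immunization without overlap. Rps10 1436384_at was at -0.26 (SE 0.073, adjusted p = 0.366), with its 3 immunized BALB/cJ arrays, whose values are given above, below all 3 naive ones. Weighting each array by its quality made this the 1 member called in BALB/cJ, at an adjusted p of 0.0384 within a range up to 1 over all alternatives. No other Rps10 set had its immunized BALB/cJ arrays below all 3 naive ones. On 1456497_x_at they lay above, at 0.0074, 0.0056 and 0.015 against -0.0013, -0.056 and -0.083 in the naive BALB/cJ arrays. The paralog Rpl7l1 (1426386_at) stood at 0.23 (SE 0.089, adjusted p = 0.462). The large subunit gene Rpl27a (1437729_at) stood at 0.28 (SE 0.11, adjusted p = 0.49), from -0.097, -0.12 and -0.22 in the naive BALB/cJ arrays, 0.38, -0.0094 and 0.13 in the naive BALB/cByJ arrays, 0.0094, 0.32 and 0.063 in the immunized BALB/cJ arrays, and -0.077, -0.18 and 0.039 in the immunized BALB/cByJ arrays. The other Rpl27a set, 1419799_at, did not rise. It was at -0.11, 0.069 and 0.099 in the naive BALB/cJ arrays and -0.16, 0.049 and -0.11 in the immunized BALB/cJ arrays. Over the 12 arrays these 2 Rpl27a sets correlated at a Pearson r of 0.051. Rpl22 (1448398_s_at), a large subunit protein needed for the development of αβ T cells, was at -0.19 (SE 0.079, adjusted p = 0.497), and its other 2 probe sets were at 0.051 and 0.013.

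In BALB/cByJ the members lay slightly higher after immunization, with no probe set past the test. None of 107 was called, against 0.0511% of all probe sets, and 7 passed at an unadjusted p under 0.05, 6 higher and 1 lower, against 8.3% of all. The arrays did not overlap for 13 members, 11 of them higher, against 12.1% of all (6.91% higher and 5.2% lower). The median was 0.067, against -0.00016 over all probe sets, and 89 of 107 members were above 0 (83.2%), against 50% of all. This median fell to 0.011 without naive BALB/cByJ replicate 3, the low array described above, and was 0.11 without naive BALB/cByJ replicate 1. Between the same 2 groups neutrophil genes (10 of 12 measured) went from array medians of -1.10 to -0.82 in naive spleens to -0.12 to 1.23 after immunization, heat shock genes (11 of 11) from -0.25 to -0.079 up to -0.0027 to 0.35, and T cell genes (11 of 13) from -0.22 to -0.057 up to 0.035 to 0.065, while pancreas acinar genes went from 0.19 to 2.61 down to -0.031 to 0.0072. None of these ranges overlapped, and the part of these markers in the shift was not tested. The members with the smallest p were Rpl35 1454833_at at 0.33 (SE 0.11, adjusted p = 0.477), Rpl12 1435655_at at 0.25 (SE 0.089, adjusted p = 0.519), Rpl7l1 1452049_at at 0.19 (SE 0.070, adjusted p = 0.519) and Rps27l 1423254_x_at at 0.22 (SE 0.080, adjusted p = 0.528). The 2 probe sets called between the naive colonies stood at 0.21 (SE 0.081, adjusted p = 0.548) for Rps24 1455195_at and -0.26 (SE 0.10, adjusted p = 0.55) for Rps20 1450417_a_at. This comparison and the naive one share the naive BALB/cByJ arrays.

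The difference between the 2 responses, that is immunized minus naive in BALB/cByJ less the same in BALB/cJ, passed the test for no ribosomal protein probe set. The counts were 0 of 107 members and 0% of all probe sets, with 4 members, 3 positive and 1 negative, at an unadjusted p under 0.05, against 7.59% of all. The 4 were Rps10 1436384_at at 0.41 (SE 0.10, adjusted p = 0.489), Rpl12 1435655_at at 0.43 (SE 0.13, adjusted p = 0.505), Rpl35 1454833_at at 0.51 (SE 0.16, adjusted p = 0.517) and Rpl27a 1437729_at at -0.51 (SE 0.16, adjusted p = 0.517). All are plain _at sets, and each lay on opposite sides of 0 in the 2 responses. No other set of these genes was among the 4. The median over the members was 0.038, against 0.0037 over all, and -0.0020 without naive BALB/cByJ replicate 3.

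**Figure D4:**
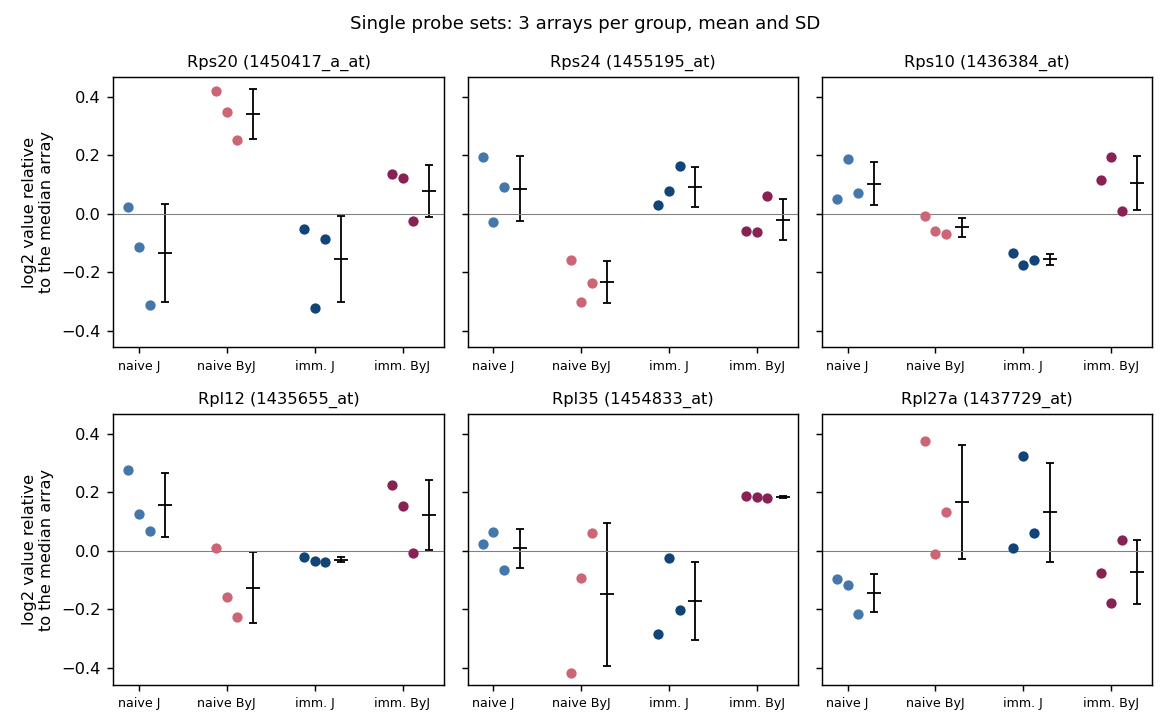
Log2 value relative to the median array (vertical axis) of 6 ribosomal protein probe sets in the 4 groups (horizontal axis), with 3 coloured points for the arrays of a group and a black bar for their mean and SD. Naive BALB/cByJ is highest for Rps20, lowest for Rps24, and the immunized colonies do not overlap for Rps20, Rps10, Rpl12 and Rpl35.

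The intervals of these differences were narrow. With a fold of 1.5 (0.58 on the log2 scale), a bound chosen after the values were seen, the 95% interval of limma lay inside the bound on both sides for 106 of the 107 members between the naive colonies, 105 between the immunized colonies, 107 for immunization in BALB/cJ, 107 for immunization in BALB/cByJ, and 100 for the difference of responses. Over all probe sets the shares were 87.1%, 91.4%, 91.5%, 91.5% and 76.9% in the same order. Intervals cover single probe sets and were not adjusted for their number. A moderated F-test over the 4 groups called 0 of 107 members, against 1.77% of all probe sets, and 12 members at an unadjusted p under 0.05 (11.2%), against 17.5% of all. A one-way analysis of variance, the test named in the study's methods, called 0 members too, with 11 at an unadjusted p under 0.05.

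By role, the only member probe sets that passed the test in any comparison were the 2 of the small subunit. No role was tested as a group. Rplp0, the scaffold of the stalk, had values on 1419441_at of -0.0067, -0.12 and -0.086 in the naive BALB/cJ arrays, 0.0067, -0.0080 and -0.16 in the naive BALB/cByJ arrays, 0.051, 0.050 and 0.021 in the immunized BALB/cJ arrays, and 0.036, -0.043 and 0.069 in the immunized BALB/cByJ arrays. Its naive BALB/cJ arrays lay below 0 and its immunized BALB/cJ arrays above 0, with a difference of 0.11 (SE 0.073, adjusted p = 0.681) in BALB/cJ. Rplp2, an acidic stalk protein, had values on 1415879_a_at of 0.032, -0.0043 and 0.00032 in the naive BALB/cJ arrays, 0.11, -0.082 and -0.20 in the naive BALB/cByJ arrays, -0.00032, -0.064 and 0.025 in the immunized BALB/cJ arrays, and 0.0030, -0.051 and 0.060 in the immunized BALB/cByJ arrays. The groups of Rplp2 overlapped, and the naive difference was -0.066 (SE 0.083, adjusted p = 0.744). Rpsa, the small subunit protein also known as the laminin receptor, differed between the naive colonies by 0.062 on 1416196_at and -0.039 on 1448245_at, neither called. Rps6, the substrate of the S6 kinases, differed by 0.087 on 1416142_at and -0.0025 on 1453466_at. Rps19, the gene most often affected in Diamond-Blackfan anaemia, differed by -0.072 (SE 0.078, adjusted p = 0.692) on 1449243_a_at and by 0.12 on immunization of BALB/cByJ. Rpl11, which binds Mdm2 when ribosome assembly fails, differed by 0.023 between the naive colonies and by 0.11 (SE 0.076, adjusted p = 0.711) on immunization of BALB/cJ. Fau, whose product is cleaved into a small subunit protein and a ubiquitin-like protein, lies outside the rule by its name and differed by -0.049 (adjusted p = 0.776) between the naive colonies. No probe set named Rpl5, Rps27a or Rack1 alone.

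The 10 probe sets of the 6 paralogs had higher median responses than the probe sets of either subunit, although none of the 10 passed the test in any comparison. Rpl7l1 and Rps27l held 3 of the 10 each, so these 2 genes weigh most in the medians. The median difference of the 10 on immunization was 0.13 in BALB/cJ and 0.12 in BALB/cByJ. It was 0.0080 and 0.070 for the large subunit and 0.011 and 0.052 for the small subunit. Neutrophil and heat shock genes were higher after immunization in both colonies without overlap, with the ranges given above, and their part in the paralogs' values was not tested. Rpl7l1, a relative of Rpl7 that acts in the assembly of the large subunit, had values on 1452049_at of 0.025, -0.027 and -0.017 in the naive BALB/cJ arrays, -0.16, -0.21 and -0.12 in the naive BALB/cByJ arrays, 0.079, 0.13 and 0.19 in the immunized BALB/cJ arrays, and 0.017, -0.040 and 0.11 in the immunized BALB/cByJ arrays. On 1452049_at the naive BALB/cByJ arrays were all below the naive BALB/cJ arrays, and both immunized groups lay above their naive ones without overlap. Its differences on immunization were 0.14 (SE 0.070, adjusted p = 0.583) in BALB/cJ and 0.19 (SE 0.070, adjusted p = 0.519) in BALB/cByJ. The other Rpl7l1 probe sets gave 0.23 and 0.030 in BALB/cJ and 0.14 and 0.11 in BALB/cByJ. Between the naive colonies the 3 Rpl7l1 sets ranged from -0.16 to 0.090, with 1 higher in BALB/cByJ and 2 lower. Rps27l, a paralog that p53 induces, gave 0.22, 0.11 and 0.15 on its 3 probe sets in BALB/cByJ and 0.12, 0.14 and 0.086 in BALB/cJ. Rpl3l, the paralog of striated muscle, gave 0.19 in BALB/cJ and 0.087 in BALB/cByJ. Rpl39l, the paralog of male germ cells, gave -0.012 and 0.23. Rpl22l1, the paralog of Rpl22, gave 0.14 and 0.026, and Rps4l gave -0.0036 and -0.015.

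The ribosomal protein probe sets spread less over the arrays than the chip as a whole. The SD over the 12 arrays had a median of 0.0825 in the members and 0.138 in all probe sets. In 106 of 107 members (99.1%) all 12 values lay within 0.5 of the median array, against 86.5% of all probe sets. Members with a suffix had a median SD of 0.0775 and plain _at members 0.121, whereas all probe sets of these kinds had 0.137 and 0.138. Mitochondrial ribosomal proteins had 0.106, and the ribosomal protein sets that named several genes had 0.0899. Levels are not in the deposited values, so the spread could not be set against brightness, and its part was not tested. The highest SDs belonged to Rpl37 1438291_x_at with 0.253, Rps20 1450417_a_at with 0.235 and Rps4l 1452730_at with 0.228. Rpl37, a zinc-binding protein of the large subunit, had values of 0.12, 0.17 and -0.28 in the naive BALB/cJ arrays, 0.15, -0.35 and -0.30 in the naive BALB/cByJ arrays, 0.13, -0.11 and 0.50 in the immunized BALB/cJ arrays, and -0.074, -0.25 and 0.074 in the immunized BALB/cByJ arrays. Every group of Rpl37 held values on both sides of 0. The lowest SDs belonged to Rps2 1431766_x_at with 0.0401, Rpl37a 1416218_x_at with 0.0458 and Rps10 1439374_x_at with 0.0481, and the values of Rps2 lay between -0.085 and 0.056 over all 12 arrays.

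**Figure D5:**
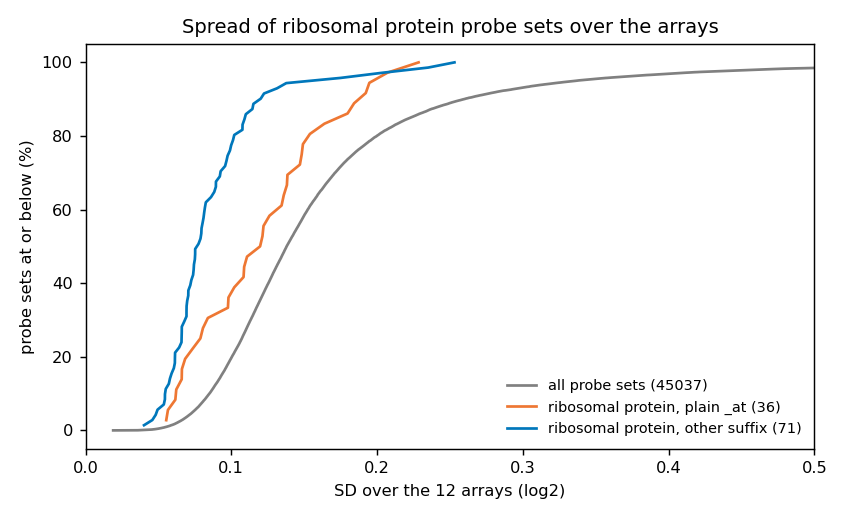
Share of probe sets (vertical axis, percent) with an SD over the 12 arrays (log2) at or below the value on the horizontal axis, for all probe sets and for the members by suffix; the horizontal axis ends at 0.5. The curve of the suffixed members (median 0.0775) lies to the left of that of the plain _at members (0.121), and both lie to the left of all probe sets (0.138).

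Probe sets of a single ribosomal protein gene did not always tell the same story. Of the 51 genes, 27 had 1 probe set, 7 had 2, 10 had 3, 3 had 4, and Rpl35, Rps10, Rps18 and Rps24 had 6 each. Over the 12 arrays, pairs of sets for the same gene correlated with a median Pearson r of 0.82 where neither was plain _at (65 pairs), 0.043 where 1 was (41 pairs) and -0.065 where both were (9 pairs). The median over all 5671 pairs of members was 0.41. It was 0.66 among members with a suffix and 0.050 among plain _at members, and 0.099 among mitochondrial ribosomal protein sets. These pairs share the 12 arrays and their normalization, and sets with a suffix can share probes, so the values are descriptions. Among genes with at least 3 probe sets, the 3 of Rpl7 had r between 0.94 and 0.99 and the 3 of Rps28 between 0.93 and 0.96. The 6 of Rps18, by contrast, ranged from -0.78 to 0.98, and the 3 of Rps3 from -0.49 to 0.37. The calls of Rps20 and Rps24 were each made by 1 probe set of a gene with such discordant sets, whose r ranged from 0.018 to 0.90 and from -0.64 to 0.92. The sets with the smallest p of Rps24, Rps10, Rps18 and Rpl35 were plain _at sets. Which transcript or sequence these sets read was not tested.

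Of the other genes of the ribosome's life cycle, a few passed the test between the naive colonies and none in the other 4 comparisons. The 59 measured ribosome biogenesis factors had 0 of 121 probe sets called, against 4.39% of all probe sets, and the 18 genes of mTORC1 and TOP control had 0 of 40. The 76 mitochondrial ribosomal protein genes had 0 of 156. Among RNA polymerase I genes 1 of 35 probe sets was lower in BALB/cByJ, that of the subunit gene Znrd1 at -0.28 (SE 0.070, adjusted p = 0.0438). Among elongation factors 2 of 28 were higher, those of Eef2k, the kinase that switches off elongation factor 2, at 0.41 (SE 0.088, adjusted p = 0.0249) and of Eef1d, a nucleotide exchange factor, at 0.38 (SE 0.089, adjusted p = 0.0329). Among initiation factors 1 of 83 was higher, the poly(A)-binding protein gene Pabpc1 at 2.13 (SE 0.43, adjusted p = 0.0194) on 1453840_at. That set varied widely within groups. It was at -1.64, -1.56 and -1.26 in the naive BALB/cJ arrays and 1.02, 1.05 and -0.12 in the naive BALB/cByJ arrays. In the immunized BALB/cJ arrays it was at 0.12, 0.72 and -1.27, and in the immunized BALB/cByJ arrays at -0.12, 0.73 and 0.35. The 48 probe sets of other genes with TOP messenger RNAs held 2 calls, which were the same Pabpc1 and Eef1d sets. Among chaperones and importers of ribosomal proteins 1 of 42 was higher, that of the importin gene Ipo5 at 0.36 (SE 0.071, adjusted p = 0.0174). Among quality control and stress genes 4 of 37 probe sets from 2 genes were higher. They belonged to Eif2ak1, the heme-regulated kinase of red cell precursors, at 0.90 (SE 0.17, adjusted p = 0.0149) and to Eif2ak2, a kinase activated by double-stranded RNA, at 0.55 (SE 0.14, adjusted p = 0.0473) on the sets with the smallest p. The values of Eif2ak1 1436006_at were -0.27, -0.39 and -0.062 in the naive BALB/cJ arrays, 0.48, 0.74 and 0.75 in the naive BALB/cByJ arrays, -0.095, -0.15 and -0.79 in the immunized BALB/cJ arrays, and 0.062, 0.24 and 0.43 in the immunized BALB/cByJ arrays. The 3 naive BALB/cByJ arrays were the highest of the 12 for Eif2ak1. The erythroid, cell cycle and pancreas acinar genes, whose ranges are given above, were also higher in naive BALB/cByJ than in naive BALB/cJ without overlap and the B cell genes lower, and their part in these calls was not tested. On the Diamond-Blackfan list 2 of 38 probe sets were called, and they were those of Rps20 and Rps24.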

How the data were processed

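Total RNA of 12 mouse spleens was hybridized to Affymetrix Mouse Genome arrays. Per the study's methods, the authors ran robust multi-array averaging (quantile normalization and median polish) in GeneSpring GX on a log scale and subtracted each probe set's median over the 12 arrays. The deposited log2 values therefore hold differences between arrays and no levels, so no filter on low values could be set, and all 107 member probe sets were tested. Quantile normalization gives every array nearly the same distribution and would hide a shift of the whole transcriptome. Symbols came from the platform annotation, dated 2016, and groups from the sample titles.

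All 45037 probe sets other than the 64 controls entered 1 fit in limma 3.58.1 under R 4.3.3 (1 mean per group, 12 arrays, empirical Bayes without trend), and p-values were adjusted by Benjamini-Hochberg over all of them, with calls at an adjusted p under 0.05. Every adjusted p in the text is from limma and two-sided. The fit was tested on simulated data. Precision is limited by 3 arrays a group. The labels call the arrays biological replicates, and no pair of them held equal values. Members and gene lists were chosen with earlier results of these data known. Named were the stalk genes, Rpsa and the paralogs, called members, the 4 members of smallest p where fewer than 4 were called, genes with a called probe set and others of opposite sign, up to 4 genes per pathway list with a call, the 3 members of highest and of lowest SD, and Rps6, Rps19, Rpl5, Rpl11, Rps27a, Fau and Rack1. A further gene is not reported here.

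Alternatives were another normalization or centring, other variance models, array weights, the compared groups alone, blocks for replicate number and for the run of sample numbers, plain _at sets alone, gene means, each array left out, an erythroid covariate, and the arrays with other tissue or stress genes left out. The labels do not say that replicate numbers pair mice, and correlations of same-numbered deviations ranged from -0.26 to 0.37. Start sites were read from RefSeq promoter sequences with Python 3.11.15 and pandas 2.3.3, and figures were drawn with matplotlib 3.10.9.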

Additional observations from a re-analysis of the deposited data

How the results depend on the processing

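The number of ribosomal protein probe sets called between the naive colonies, 2, was 0 after quantile normalization of the deposited values, with the compared groups fitted alone, among the 36 plain _at sets, at the level of the 51 genes, with the erythroid mean as a covariate, and when the 4 arrays high in pigment cell genes were dropped. It was 1 with array medians subtracted and when the 4 arrays high in either pancreatic or heat shock transcripts were dropped, and 4 with array weights. Leaving out 1 array at a time gave between 0 and 3. The replicate block gave 3, adding Rpl12 at an adjusted p of 0.0494 beside Rps20 at 0.0206 and Rps24 at 0.0426. That block changed no other call among the members, while over all probe sets it called 2247 between the naive colonies. The labels do not say that the numbers pair mice. Rps20 lost its call in 9 alternatives and kept it in 13, and Rps24 lost it in 18 and kept it in 5. The count in the other comparisons stayed at 0 except for immunization in BALB/cJ, where array weights gave 1, Rps10 at an adjusted p of 0.0384. The median difference of the members between the naive colonies was 0.026 with the erythroid covariate. With 1 array left out it ranged from -0.091 to 0.0076 there, from 0.011 to 0.11 for immunization in BALB/cByJ and from -0.0020 to 0.091 for the difference of responses. The cause of these changes was not tested. The alternatives covered, in each comparison, the 4 members of smallest p, and none of these changed direction; the other named probe sets were fitted once. Over all probe sets the naive colonies differed in 1976, and in 1309 after quantile normalization, 5950 with array weights, 1262 with the compared groups alone, 26 with the erythroid covariate, 15 and 3065 without the pigment and the pancreatic or heat shock arrays, and as few as 161 without naive BALB/cJ replicate 2, 232 without naive BALB/cJ replicate 1, 265 without naive BALB/cByJ replicate 3 and 1285 without naive BALB/cByJ replicate 2. The counts for immunization were 0 in BALB/cJ, or 651 with array weights and 103 without the pancreatic or heat shock arrays, and 23 in BALB/cByJ, or 3 to 35 elsewhere. The immunized colonies differed in 54, or 17 to 141, the responses in 0, or up to 13, and the 4 groups in 796, or 74 by the analysis of variance. Dropping the pigment arrays left 1 naive BALB/cJ array, which was assumed to vary like the others. The fit of compared groups alone was not run for the difference of responses. Signal over background is not in the deposited values, and 3 arrays a group limit what can be called.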

Other observations

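Among the 110 ribosomal protein probe sets that named several genes, 1 passed the test between the naive colonies, against 4.39% of all probe sets. It was 1438527_at, which names Rpl3, a protein of the large subunit's catalytic centre, beside the gene models Gm5879 and Gm12816, and it was higher in BALB/cByJ by 0.63 on the log2 scale (SE 0.12, adjusted p = 0.0142 from limma). None of the 110 was called in the other 4 comparisons. Their median difference was -0.048 between the naive colonies and 0.056 for immunization in BALB/cByJ, beside -0.041 and 0.067 in the members. Which of the named genes this probe set reads was not tested.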
